A study of Mus musculus with 31 samples.

Results

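Genes of epidermal identity and terminal differentiation, 10 of 20704 genes in the table of ribosome-protected fragments (RPFs) and of 24593 in the table of total RNA, were followed through mouse skin squamous cell carcinoma (SCC) cells. They were listed by symbol, with earlier results of these data known: the regulators Trp63, Klf4, Ovol1 and Grhl3, the cornified envelope genes Tgm1, Ivl and Sprr1a, the protease gene Asprv1, the endoribonuclease gene Endou and the cytokine gene Il1f9. All 10 were found in both tables, and all 10 passed the filter on low counts in RPF and in total RNA.

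RPFs, the mRNA pieces that a translating ribosome shields from nuclease, and total RNA were sequenced from 2 sets of SCC cells. Both sets carried Hras G12V. The labels give their Tgfbr2 allele as fl/fl, while the study lists both lines as D/D, the deleted form. In both, the endogenous Eif2s1 gene (eIF2α) had been cut by CRISPR and replaced by a myc-tagged transgene driven by the PGK promoter. S51 cells received the unaltered transgene and are competent for the integrated stress response (ISR), in which phosphorylation of eIF2α at serine 51 lowers protein synthesis. S51A cells received a form with alanine at that position and are ISR-null. Each set was treated with vehicle (DMSO) or with 100 nM bortezomib, a proteasome inhibitor, for 4.5 h by the labels. Total RNA came from 4 libraries in each of the 4 groups and RPFs from 3 libraries of S51 vehicle and 4 of each other group. The lines were grown from single cells, which clone gave which library is not named, and nothing in the labels says that the libraries came from separate cultures. The study chose 2 clones of each form and shows results of pooled clones. It calls the replicates independent and biological in a figure legend but technical in its text. Differences between S51 and S51A therefore cannot be told apart from differences between clones, and p-values measure only the spread between these libraries. The submitters recorded that S51 bortezomib and S51A vehicle samples had once carried each other's titles, and the corrected titles were used here.

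In the epidermis, basal keratinocytes divide on a basement membrane under the control of the transcription factor p63, the product of Trp63. Cells that leave this layer switch on regulators such as Klf4, Ovol1 and Grhl3, which are needed for an intact skin barrier, and fill with proteins such as involucrin (Ivl) and the small proline-rich proteins (Sprr1a). Transglutaminase 1 (Tgm1) then crosslinks these proteins beneath the plasma membrane into the cornified envelope. Asprv1 encodes an aspartic protease of the upper layers that processes profilaggrin, and Il1f9 encodes interleukin 36γ, a cytokine that keratinocytes release in inflamed skin.

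Library totals ran from 1038826 to 4902237 counts in RPF, lowest in S51 bortezomib, and from 18758668 to 22994713 in total RNA, so the less abundant genes rest on few RPF counts. Levels are given as CPM, counts divided by library size after scaling by trimmed mean of M values (TMM). The targeted gene Eif2s1 was read at 310 ± 7.28 (SD, n = 4) CPM of total RNA in S51 vehicle and 295 ± 6.71 CPM in S51A vehicle. It was higher in S51A vehicle in RPF, by 0.73 ± 0.17 on the log2 scale (edgeR adjusted p = 0.00234), and in translational efficiency, the RPF difference relative to that in total RNA, by 0.77 ± 0.16 (edgeR adjusted p = 0.0217). Gene counts do not separate the transgene from the endogenous gene, so these values do not check the genotype labels. The keratinocyte markers were all detected, with summed total RNA levels from 13670 to 20130 CPM over the 16 libraries. Of 9 fibroblast markers, 7 were at no more than 3 counts in every library of each group, among them Col1a2, Col3a1, Dcn, Lum and Thy1 at 0 in all 4 groups.

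The 250 bases before the RefSeq start sites show what some of these genes share in sequence beyond their place in the list. Of the 10 genes, 7 have an entry in the RefSeq promoter table (GRCm38.p6, the mm10 build), 8 entries in all since Tgm1 has 2; Trp63, Ovol1 and Endou have none. Sprr1a (gene at chr3:92483954-92485881) and Ivl (chr3:92570899-92573790) lie on the minus strand of chromosome 3 with 85017 bases between them, in the epidermal differentiation complex. Asprv1 (chr6:86628174-86629710) and Il1f9 (chr2:24186476-24193567) lie on the plus strand. These 4 promoters are printed because the envelope, protease and cytokine genes they belong to were higher in S51A in all comparisons of the lines, in both kinds of library. The regulator Grhl3 was higher in all of these as well, and its entry is not printed. The Ivl start used in that table lies inside the annotated span of the gene. The promoters are written 5′ to 3′ on the strand of the gene from chr3:92485882-92486131, chr3:92573736-92573985, chr6:86627924-86628173 and chr2:24186226-24186475, with matches to the AP-1 letters TGANTCA and to TATAAA in capitals.
Sprr1a: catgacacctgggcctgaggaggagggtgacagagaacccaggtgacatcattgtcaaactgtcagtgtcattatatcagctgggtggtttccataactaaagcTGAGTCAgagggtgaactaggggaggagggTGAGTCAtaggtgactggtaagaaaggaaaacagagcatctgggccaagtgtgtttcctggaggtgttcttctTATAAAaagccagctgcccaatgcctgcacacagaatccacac
Ivl: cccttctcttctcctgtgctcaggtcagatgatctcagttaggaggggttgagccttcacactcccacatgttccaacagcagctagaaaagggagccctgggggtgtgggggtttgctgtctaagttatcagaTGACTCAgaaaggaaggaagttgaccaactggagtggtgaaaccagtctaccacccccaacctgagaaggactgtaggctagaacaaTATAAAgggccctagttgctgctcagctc
Asprv1: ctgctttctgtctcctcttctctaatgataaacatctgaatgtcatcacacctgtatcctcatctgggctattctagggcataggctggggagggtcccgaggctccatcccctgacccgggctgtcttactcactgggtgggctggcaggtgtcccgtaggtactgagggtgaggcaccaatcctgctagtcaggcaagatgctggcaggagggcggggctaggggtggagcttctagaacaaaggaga
Il1f9: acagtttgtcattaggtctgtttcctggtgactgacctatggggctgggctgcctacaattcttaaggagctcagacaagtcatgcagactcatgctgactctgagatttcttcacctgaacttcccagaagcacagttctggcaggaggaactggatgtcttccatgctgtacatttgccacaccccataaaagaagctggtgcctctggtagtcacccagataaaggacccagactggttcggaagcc

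The Sprr1a promoter held 2 AP-1 matches, TGAGTCA each, at 146 to 140 and 116 to 110 bases before the start, and the Ivl promoter held 1, TGACTCA, also at 116 to 110 bases. The AP-1 letters, read on both strands, were in 2 of the 8 entries and in 6.75% of 32851 RefSeq promoters of the same length. TATAAA was in the same 2 entries, 43 to 38 bases before the Sprr1a start and 29 to 24 bases before that of Ivl, and in 12.4% of all promoters. The KLF letters CACCC were in 7 of the 8 entries and in 52.0% of all promoters, and in Sprr1a 1 of their 4 matches overlaps the nearer AP-1 match. The GRHL letters AACCNGTT, the OVO letters CCGTTA and the ATF4 letters TGATGCAA were in none of the 8 entries, and in 1.79%, 2.18% and 0.791% of all promoters. These matches describe letters in a window and show no binding.

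**Figure D1:**
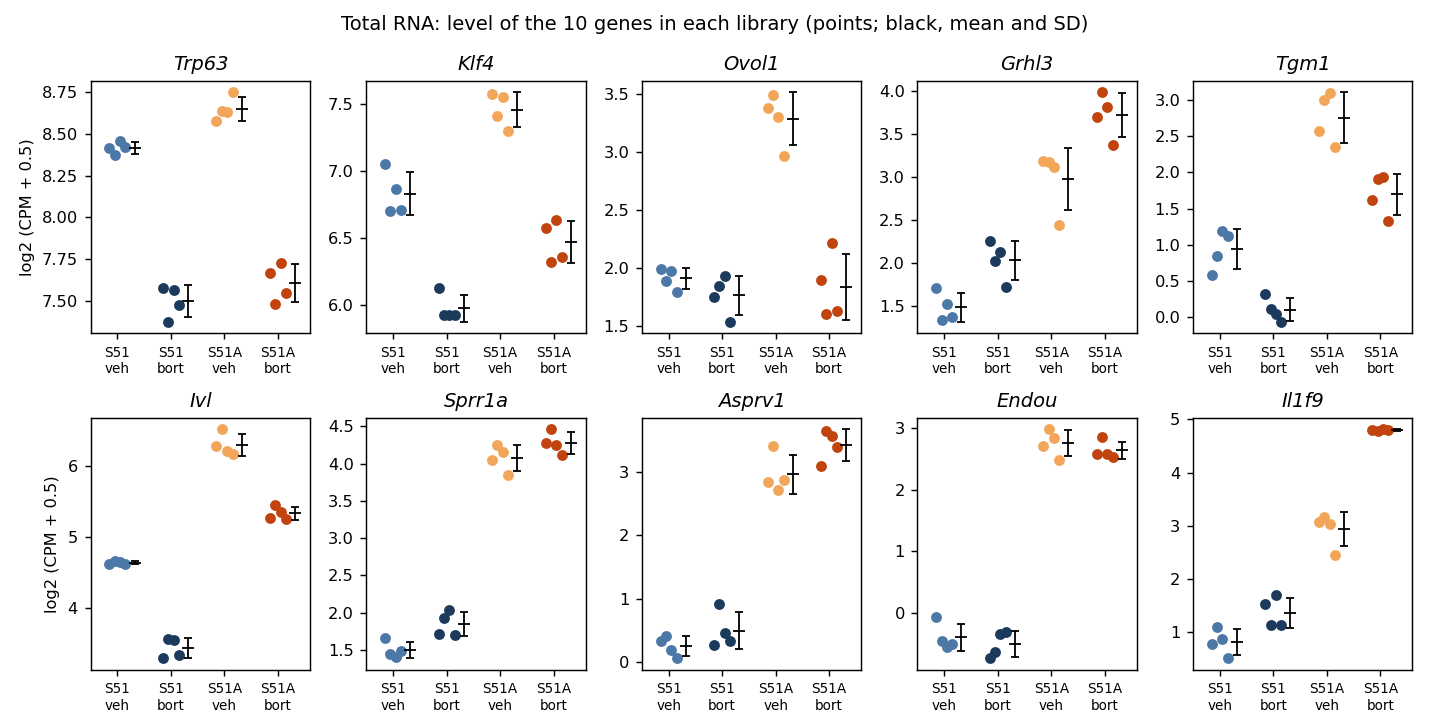
Total RNA level of each gene by library, as log2 of CPM plus 0.5 (y axis), in the 4 groups (x axis; veh, vehicle; bort, bortezomib). Each point is a library, and black marks give the mean and SD of 4 libraries; Endou libraries of S51 all lie far below those of S51A, while Trp63 and Klf4 separate mainly by treatment.

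The first comparison asked how S51A cells differed from S51 cells without stress. In total RNA, 8 of the 10 genes were higher in S51A vehicle than in S51 vehicle (edgeR's quasi-likelihood test, Benjamini-Hochberg adjusted p below 0.05 and more than 2-fold), from 2.86-fold for Ovol1 to 23.4-fold for Endou. Of all 11708 genes tested, 7.87% were called in either direction and 5.47% were higher. In RPF the same 8 genes were higher, by the study's limit of 1.5-fold, where 15.8% of 9457 genes were called and 9.19% were higher. Among them Tgm1, Asprv1, Endou and Il1f9 passed the RPF filter only through S51A libraries, as did Endou in total RNA. Their differences between the lines, in either treatment, therefore cannot be weighed against the share over all genes. Trp63 and Klf4, the remaining 2, were not called in either kind of library. In cultured cells, a higher level of an mRNA in every cell and a larger share of cells that express it cannot be told apart.

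Trp63 (chr16:25683763-25892088), the most abundant of the 10, was at 342, 331, 351 and 343 CPM of total RNA in S51 vehicle and at 382, 397, 396 and 430 CPM in S51A vehicle. All S51A libraries were above all S51 libraries, but the difference was 0.23 ± 0.05 (SE) on the log2 scale, under the 2-fold limit (edgeR adjusted p = 0.000188). Its RPF level did not differ beyond the spread, with 560.5 ± 70.8 CPM in S51 (n = 3) and 592 ± 15.2 CPM in S51A (n = 4; edgeR adjusted p = 0.484). Replicate 2 of S51 vehicle, at 642 CPM against 517 and 522, widened the S51 spread. Klf4 (chr4:55527137-55532475) was at 114 ± 13.3 CPM of total RNA in S51 vehicle and 176 ± 15.4 CPM in S51A vehicle, a difference of 0.63 ± 0.07 on the log2 scale that was likewise under the limit (edgeR adjusted p = 7.84e-08). Counts per gene do not separate the p63 isoforms: RefSeq lists 8 curated coding transcripts of Trp63, with coding lengths from 1170 to 2043 bases.

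Ovol1 (chr19:5549137-5560575), a zinc-finger repressor switched on as cells leave the basal layer, was at 3.47, 3.20, 3.44 and 2.97 CPM of total RNA in S51 vehicle. In S51A vehicle it was at 9.94, 10.8, 9.38 and 7.31 CPM, so the groups did not overlap (2.86-fold, edgeR adjusted p = 8.84e-10). Its RPF level was 2.21-fold higher (edgeR adjusted p = 0.00677), on 8 to 14 counts per library in S51 and 20 to 40 in S51A. Grhl3 (chr4:135541887-135573632), a grainyhead-like activator needed for barrier formation, was at 2.77, 2.04, 2.39 and 2.09 CPM of total RNA in S51 vehicle and at 8.62, 8.53, 8.17 and 4.95 CPM in S51A vehicle. It was thus 3.26-fold higher in total RNA (edgeR adjusted p = 1.66e-08) and 3.33-fold higher in RPF (edgeR adjusted p = 0.00281). Ovol1 overlaps the protein-coding gene Ap5b1 and Grhl3 a long noncoding gene, and whether the total RNA counting used strand is not given in the sources used here.

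The 3 envelope genes were all higher in S51A. Ivl, the most abundant of them in total RNA, was at 24.1, 24.9, 24.7 and 24.1 CPM in S51 vehicle and at 77.3, 91.3, 73.4 and 71.6 CPM in S51A vehicle, a 3.21-fold difference (edgeR adjusted p = 4.17e-16). The S51 libraries differed from each other by less than 1 CPM, and no S51A library came near them. Sprr1a was at 2.67, 2.23, 2.16 and 2.30 CPM in S51 vehicle and at 16.1, 18.5, 17.3 and 13.8 CPM in S51A vehicle, 2.81 ± 0.12 higher on the log2 scale (edgeR adjusted p = 6.69e-16). Tgm1 (chr14:55700009-55713921) was at 1.44 ± 0.358 and 6.38 ± 1.63 CPM (n = 4 each), a 4.35-fold difference (edgeR adjusted p = 1.41e-09). In RPF, Ivl was 3.77-fold, Sprr1a 5.67-fold and Tgm1 5.13-fold higher, the last on 4, 0 and 10 counts in S51. The log2 difference of Tgm1, 2.36, was 3.21 without replicate 3 of S51 vehicle and remained called. Reads had to map to 1 place, which can lower counts of Sprr1a, a gene with close relatives nearby.

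Asprv1 was at 0.755, 0.835, 0.642 and 0.544 CPM of total RNA in S51 vehicle and at 6.66, 10.1, 6.07 and 6.79 CPM in S51A vehicle, 10.7-fold higher (edgeR adjusted p = 2.44e-12). In RPF it was 11.1-fold higher, from 3, 4 and 7 counts in S51 to between 35 and 114 in S51A (edgeR adjusted p = 3.04e-06). Endou (chr15:97711015-97731405), which encodes a uridylate-specific endoribonuclease, had the largest difference of the 10 in total RNA. It was at 0.453, 0.232, 0.184 and 0.209 CPM in S51 vehicle, on 4 to 9 counts, and at 6.07, 7.43, 6.67 and 5.12 CPM in S51A vehicle (23.4-fold, edgeR adjusted p = 1.51e-14). The 3 RPF libraries of S51 vehicle held 0 or 1 count of Endou and those of S51A vehicle 17 to 57, which makes its RPF level at least 8.64-fold higher against a floor of 3 counts per library.

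Il1f9 was at 1.21, 1.62, 1.33 and 0.920 CPM of total RNA in S51 vehicle and at 7.89, 8.49, 7.72 and 4.99 CPM in S51A vehicle, a 5.72-fold difference (edgeR adjusted p = 1.12e-11). No RPF of Il1f9 was counted in the 3 libraries of S51 vehicle, where the total RNA held 22 to 35 counts. The S51A vehicle libraries held 15, 24, 7 and 28 RPF counts, a level at least 4.75-fold higher than the floor of 3 counts. The test of whether the RPF difference of Il1f9 exceeded its total RNA difference gave an unadjusted edgeR p of 0.00279 and an adjusted p of 0.198. DESeq2 gave an unadjusted p of 0.00179 and no adjusted p. With 0 RPF counts in S51 vehicle, the size of such a difference cannot be given at this depth.

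**Figure D2:**
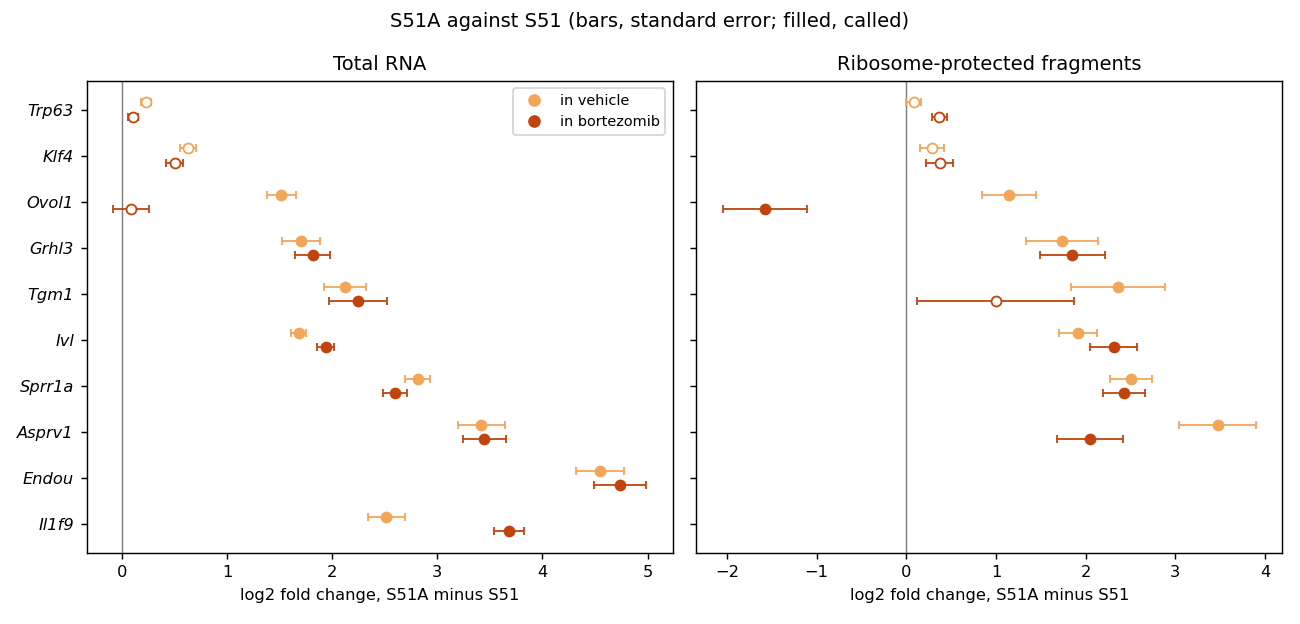
Log2 fold change between S51A and S51 (x axis) of each gene (y axis) in total RNA (left) and RPF (right), in vehicle (light) and bortezomib (dark). Bars are standard errors and filled points passed the adjusted p and fold limits; RPF points of Endou and Il1f9 are left out because S51 libraries held no more than 3 counts, and Ovol1 changes sign between the treatments in RPF.

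Under bortezomib the lines differed in total RNA by 7 of the 10 genes, all higher in S51A, where 8.28% of all genes were called and 5.54% were higher. They included Grhl3 (3.52-fold), Tgm1 (4.75-fold), Ivl (3.83-fold), Sprr1a (6.06-fold), Asprv1 (10.9-fold) and Endou (26.7-fold), each with libraries of the lines that did not overlap. The seventh, Il1f9, was higher in S51A bortezomib than in S51 bortezomib by 3.68 ± 0.14 on the log2 scale (edgeR adjusted p = 8.26e-17). Ovol1, higher in S51A in vehicle, was at 2.92 ± 0.384 and 3.13 ± 0.747 CPM in the 2 bortezomib groups, whose libraries overlapped (edgeR adjusted p = 0.668). The log2 difference of 0.09 ± 0.17 does not show that the lines were equal.

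In RPF under bortezomib, 6 genes were higher in S51A and Ovol1 was lower, where 17.7% of all genes were called and 10% were higher. Ivl was 4.96-fold, Sprr1a 5.38-fold, Asprv1 4.13-fold and Grhl3 3.61-fold higher. Endou had no RPF count in the 4 S51 bortezomib libraries and 22, 29, 20 and 32 counts in S51A bortezomib, at least 5.59-fold above the floor. Il1f9 had 2, 0, 1 and 1 counts against 70, 49, 34 and 50, at least 10.6-fold above the floor. Tgm1, at 0 to 4 counts in S51 and 0 to 9 in S51A, did not pass the test (1.00 ± 0.88 on the log2 scale, edgeR adjusted p = 0.418). Ovol1 was at 4.36, 4.77, 4.15 and 2.24 CPM in S51 bortezomib and at 1.61, 0.486, 2.60 and 0.386 CPM in S51A bortezomib, on 4 to 11 and on 1 to 5 counts. One S51A library was above the lowest S51 library, and the log2 difference was -1.58 ± 0.47 (edgeR adjusted p = 0.0128).

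**Figure D3:**
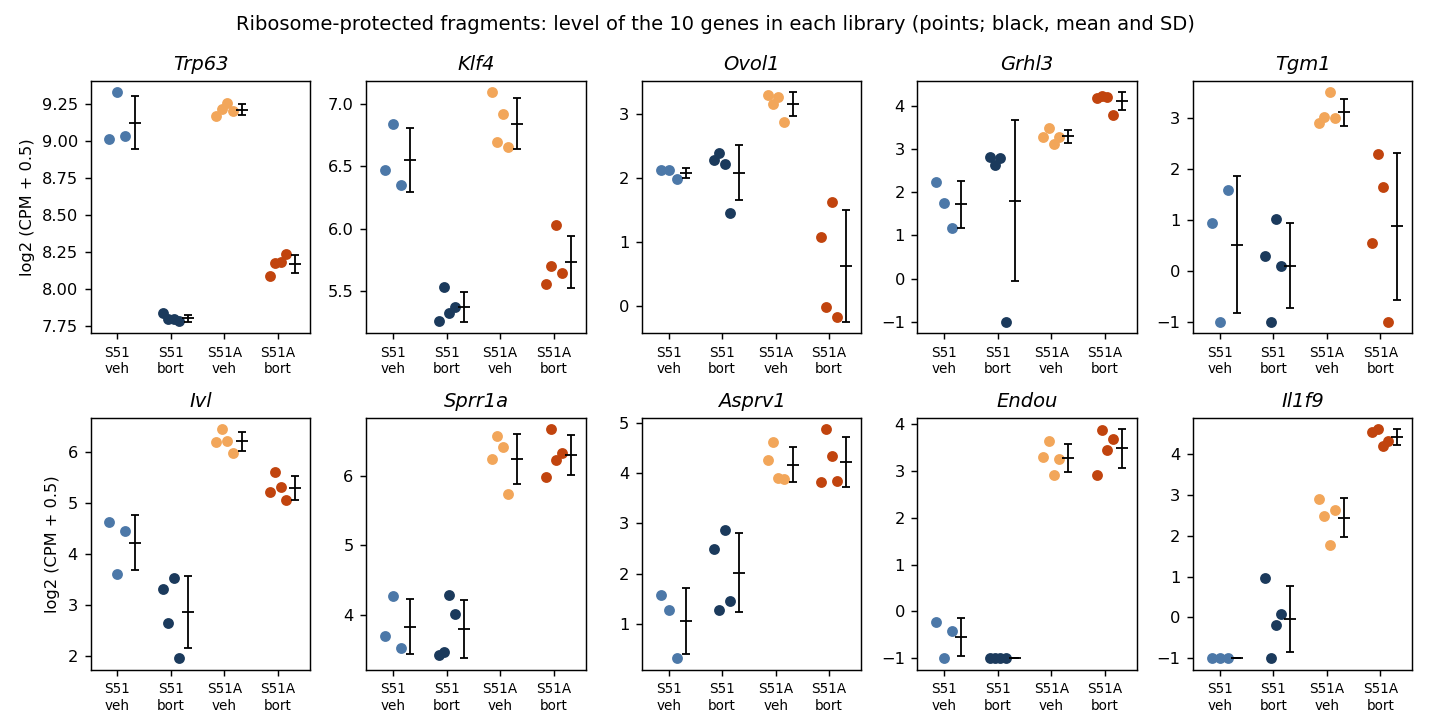
RPF level of each gene by library, as log2 of CPM plus 0.5 (y axis), in the 4 groups (x axis; veh, vehicle; bort, bortezomib). Each point is a library, with 3 in S51 vehicle and 4 in each other group, and black marks give the mean and SD; points at -1 are libraries with 0 counts, and Ovol1 was lowest in S51A bortezomib.

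The second pair of comparisons asked what bortezomib did within each line. In S51 cells, the total RNA of Ivl and Tgm1 fell more than 2-fold, 2 of the 10 genes, where 4.99% of all genes were called. In S51A cells, Trp63, Ovol1 and Tgm1 fell and Il1f9 rose, 4 of the 10 genes, where 4.18% were called. Grhl3, Sprr1a, Asprv1 and Endou were not called in total RNA in either line. Trp63 was lower after bortezomib in every library of both lines, from 342 ± 8.39 to 181 ± 11.6 CPM in S51 and from 401 ± 20.1 to 195 ± 15.2 CPM in S51A (n = 4 each). Its log2 changes of -0.92 ± 0.05 and -1.04 ± 0.05 (edgeR adjusted p = 7.49e-14 and 7.74e-15) lay on either side of the 2-fold limit, and their difference did not pass the test (edgeR adjusted p = 0.215).

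Klf4 was close to that limit as well, at 62.5 ± 4.48 CPM in S51 bortezomib and 88.6 ± 9.65 CPM in S51A bortezomib. Its log2 changes were -0.86 ± 0.08 and -0.99 ± 0.08 (edgeR adjusted p = 9.76e-10 and 6.05e-11), with no overlap between treated and untreated libraries. In S51A it was past the limit, with values down to -1.04, without replicate 2 or 4 of vehicle or replicate 1 or 3 of bortezomib. Ivl went to 9.32, 11.4, 11.3 and 9.62 CPM in S51 bortezomib and to 38.2, 43.4, 40.4 and 37.6 CPM in S51A bortezomib. The bortezomib libraries of each line lay below all its vehicle libraries, with log2 changes of -1.23 ± 0.09 in S51 and -0.97 ± 0.07 in S51A. The latter is just under the limit and was past it, with values down to -1.02, without replicate 3 or 4 of S51A vehicle or replicate 2 of S51A bortezomib, and the test of the difference gave an edgeR adjusted p of 0.0946. Tgm1 went to 0.582 ± 0.126 CPM in S51 and 2.79 ± 0.617 CPM in S51A, on 9 to 15 and on 42 to 69 counts per library.

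RPFs of the 2 most abundant regulators fell in both lines. In S51, 4 of the 10 genes were called, where 18.6% of all genes were, and in S51A 7 were called, where 10.9% were. Tgm1, among the genes called in S51A, passed the RPF filter through the S51A vehicle libraries, where it was high. Its fall in S51A therefore cannot be weighed against that share. Trp63 RPFs were at 517, 642 and 522 CPM in S51 vehicle and at 228, 222, 222 and 220 CPM in S51 bortezomib, a log2 change of -1.33 ± 0.08 (edgeR adjusted p = 1.18e-10). In S51A they were at 574, 595, 611 and 589 CPM in vehicle and at 272, 288, 289 and 302 CPM in bortezomib, a log2 change of -1.04 ± 0.08 (edgeR adjusted p = 1.95e-09). Every treated library was below every untreated one in both lines. Klf4 RPFs fell by 1.20 ± 0.15 and 1.12 ± 0.13 on the log2 scale, and Ivl RPFs by 1.32 ± 0.30 and 0.92 ± 0.18. The fourth gene called in S51 was Il1f9, on 0 counts in vehicle and 0 to 2 in bortezomib, both at or under the floor of 3 counts, so no fold is given (edgeR adjusted p = 0.0467). That call was lost when any 1 of 6 of the 7 S51 libraries was left out, kept without replicate 2 of S51 bortezomib, and not made by DESeq2 (adjusted p = 0.0692). Asprv1, at 1.72 ± 0.884 and 4.01 ± 2.34 CPM, did not pass (edgeR adjusted p = 0.0654), but was called by DESeq2 (adjusted p = 0.0325) and by edgeR without replicate 1 or 2 of S51 vehicle or replicate 4 of S51 bortezomib (log2 changes 1.90, 1.58 and 1.69). Grhl3 RPFs in S51 bortezomib were at 6.54, 5.73, 6.42 and 0 CPM, and its log2 change of 0.70 ± 0.51 was not called, while without the library at 0 counts, replicate 4, it was 1.14 and called.

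In S51A cells, Ovol1 RPFs fell 6.45-fold (edgeR adjusted p = 1.14e-05), Tgm1 RPFs 4.46-fold (edgeR adjusted p = 0.00278) and Il1f9 RPFs rose 4.01-fold (edgeR adjusted p = 3.19e-06). Tgm1, on 0 to 9 counts in S51A bortezomib, changed by -2.16 on the log2 scale and by -2.87 without replicate 2 of that group, and remained called. Grhl3 RPFs went from 9.42 ± 1.01 to 17.0 ± 2.32 CPM, a log2 change of 0.82 ± 0.28 (edgeR adjusted p = 0.0406). That call was lost when any 1 of 7 of the 8 S51A libraries was left out, and kept without replicate 4 of S51A bortezomib. Sprr1a, Asprv1 and Endou, with log2 changes of 0.05 ± 0.18, 0.04 ± 0.26 and 0.17 ± 0.25, were not called.

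**Figure D4:**
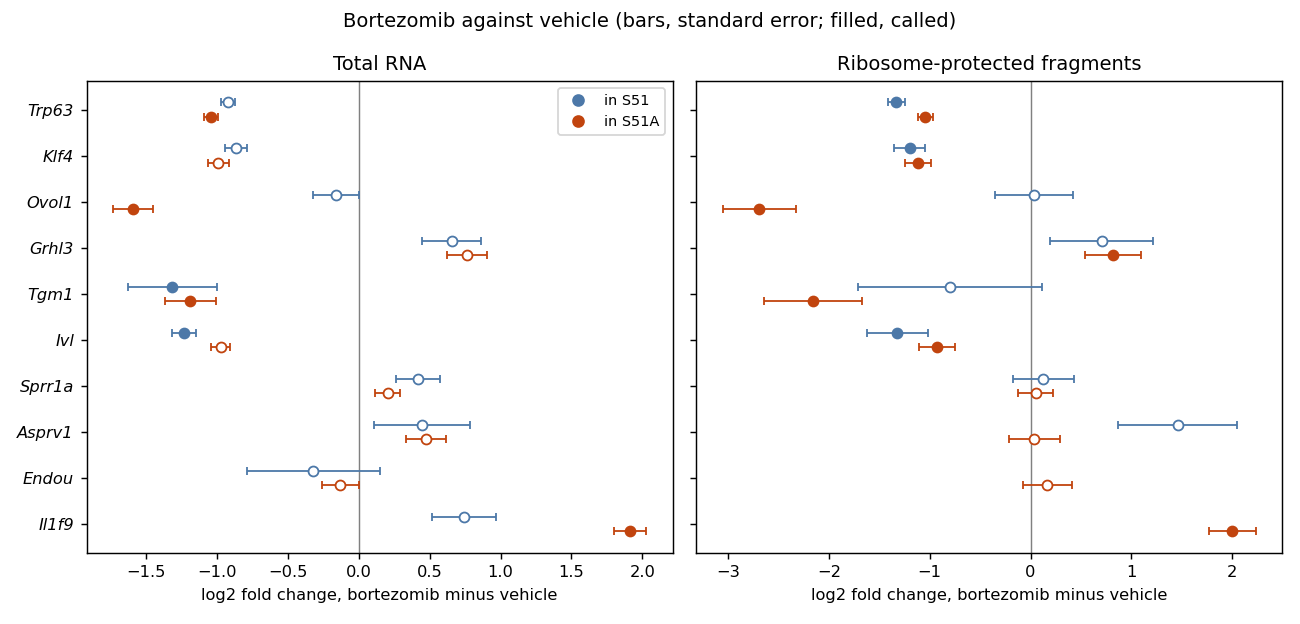
Log2 fold change between bortezomib and vehicle (x axis) of each gene (y axis) in total RNA (left) and RPF (right), in S51 (blue) and S51A (red). Bars are standard errors and filled points passed the adjusted p and fold limits; the RPF points of Endou and Il1f9 in S51 are left out because their libraries held no more than 3 counts, and Ovol1 and Il1f9 lie farthest apart between the lines in total RNA.

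The response to bortezomib differed between the lines for 2 of the 10 genes in total RNA, where 0.478% of all genes were called, and for 1 in RPF, where 1.86% were called. Ovol1 total RNA was at 2.87, 3.08, 3.30 and 2.40 CPM in S51 bortezomib and at 3.22, 2.54, 4.15 and 2.60 CPM in S51A bortezomib. In S51 this overlapped with vehicle (log2 change -0.16 ± 0.17), and in S51A it lay wholly below vehicle (-1.59 ± 0.14). The difference in response was -1.43 ± 0.22 in total RNA (edgeR adjusted p = 6.48e-05) and -2.72 ± 0.56 in RPF (edgeR adjusted p = 0.00842). DESeq2, run as an alternative, gave -2.77 ± 0.67 in RPF with an unadjusted p of 3.81e-05 and no adjusted p, because its own filter on low means set the gene aside.

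Il1f9 differed in the other direction. Its total RNA was at 2.37, 1.69, 2.72 and 1.69 CPM in S51 bortezomib, all above S51 vehicle, with a log2 change of 0.74 ± 0.23 that was under the 2-fold limit (edgeR adjusted p = 0.00707). In S51A bortezomib it was at 27.4, 26.9, 27.7 and 27.2 CPM, with a log2 change of 1.91 ± 0.11 (edgeR adjusted p = 7.13e-13). The 4 libraries of that group spanned less than 1 CPM and were the highest of all 16. The difference in response was 1.17 ± 0.26 on the log2 scale (edgeR adjusted p = 0.00254). In RPF the test of this difference has no footing, since both S51 groups were at or under 3 counts.

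Translational efficiency (TE), the RPF change relative to the total RNA change in 1 model over both kinds of library, was called by edgeR for none of the 10 genes in the 5 comparisons, with TMM scaling, all libraries and no block for the library number. With library sizes alone Ovol1 was called between the lines in bortezomib (-1.79 on the log2 scale). It was also called without RPF replicate 4 of S51 bortezomib (-1.90) or 3 of S51A bortezomib (-2.16), or without total RNA replicate 3 of S51 bortezomib (-1.77) or 2 or 4 of S51A bortezomib (-1.79 and -1.78). The share of all 9424 genes called was 0.0849% between the lines in vehicle, 3.01% between them in bortezomib, 5.22% for bortezomib in S51, 0.955% for bortezomib in S51A and 1.31% for the difference in response. At an unadjusted p below 0.05, between 1 and 3 of the 10 genes passed in each of the 5 comparisons, and DESeq2 called 2 in bortezomib between the lines and none elsewhere. Those 2 were Ovol1 and Asprv1, with edgeR TE differences of -1.70 ± 0.54 and -1.43 ± 0.54 on the log2 scale in S51A against S51 (edgeR adjusted p = 0.0528 and 0.117). DESeq2 left many of the 10 genes without an adjusted p for TE, so they could not be called. These were 6 between the lines in vehicle, 1 between them in bortezomib and 2 for bortezomib in S51. For bortezomib in S51A they were 8, and for the difference in response 7. By the study's methods total RNA was set aside from the lysates that were then digested for RPFs, and the labels do not say whether a shared number marks a shared lysate. With the library number as a block, Ovol1 and Asprv1 were called lower in TE in S51A bortezomib than in S51 bortezomib, at -1.70 and -1.41 on the log2 scale (edgeR adjusted p = 0.0248 and 0.0433). Trp63 TE was lower after bortezomib in S51 by the adjusted p, with a log2 change of -0.40 ± 0.10 that was under the 1.5-fold limit (edgeR adjusted p = 0.00499). With counts as low as those of most of these genes, the lack of a call does not show that TE was equal. What size of TE difference could be detected at this depth was not tested.

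Levels can be compared between genes in RPF per kilobase of counted coding sequence, the longest RefSeq coding sequence without its stop codon, first 15 and last 5 codons. In S51 vehicle the order was Trp63 (283 ± 35.7 CPM per kilobase), Klf4 (68.0 ± 12.7), Sprr1a (37.7 ± 11.3), Ivl (14.1 ± 4.85) and Ovol1 (5.05 ± 0.310), with all others below 2. In S51A vehicle Sprr1a, at 207 ± 48.3 CPM per kilobase, stood between Trp63 (299 ± 7.69) and Klf4 (83.0 ± 11.9). Ivl followed at 54.7 ± 7.22, then Asprv1 at 18.6 ± 4.81, Ovol1 at 11.4 ± 1.49, Il1f9 at 9.93 ± 3.29, Endou at 7.20 ± 1.57, Grhl3 at 5.38 ± 0.579 and Tgm1 at 3.44 ± 0.723. From Ovol1 to Grhl3, neighbours in that order differed by less than the sum of their SDs. In S51A bortezomib Sprr1a, at 215 ± 43.8, stood above Trp63 at 145 ± 6.18. There Il1f9 reached 40.1 ± 5.48 CPM per kilobase, beside Klf4 at 38.3 ± 5.83 and Ivl at 29.1 ± 4.94. Il1f9 and Klf4 differed by less than the sum of their SDs. Trp63 was divided by its longest coding sequence, and a shorter one would give it a higher level.

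Across the 16 total RNA libraries, which share their 4 groups, the 10 genes fell into 2 patterns by Pearson's r of log2 CPM. Sprr1a, Asprv1, Endou, Grhl3 and Il1f9 correlated with each other at 0.872 to 0.988, and Trp63, Klf4 and Ovol1 at 0.731 to 0.910. Ivl and Tgm1, at 0.972 with each other, correlated with genes of both kinds, for example at 0.785 between Ivl and Sprr1a and 0.852 between Ivl and Klf4. The genes closest to each, of 11707 others, were Wee1, Cyrib and Spred1 for Trp63, St3gal6, Dhrs9 and Arf6 for Klf4, and Mark3, Zfp800 and Fam110a for Ovol1. For Grhl3 they included Spint1 and Prkcd, for Tgm1 they were Shroom3, Relb and Lnx2, and for Ivl Shroom3, Sirpa and Cxcl5. For Sprr1a they were Emp2, Ckmt1 and Idh2, for Asprv1 Sprr1a, Idh2 and Septin5, for Endou Ly6d, Mal and Basp1, and for Il1f9 they included Bicd2 and Vamp8. These values of r, from 0.940 for Ovol1 with Fam110a to 0.996 for Sprr1a with Emp2, describe 4 groups of libraries more than 16 independent points, and no p is given.

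Other genes of the epidermal program were read from lists by function, in total RNA of S51A against S51 in vehicle, where the median of all genes was 0.003 on the log2 scale. There 7.87% of all genes were called and 5.47% were higher. Genes of this and the following lists can pass the filter through S51A libraries alone, which favours higher calls. Where a list holds such genes, its higher calls and median, in total RNA or RPF, cannot be weighed against the values over all genes. Of 23 further epidermal transcription factors, 19 passed the filter, 9 were called higher and none lower, with a median of 0.91. The lowest of them was Maf, at -0.93 ± 0.09. Of 56 genes for envelope precursors and crosslinkers, 22 passed, 8 were called higher and none lower (median 0.73), between Cnfn, the envelope protein cornifelin, at 4.30 ± 0.54 and Tchh, trichohyalin, at -0.54 ± 0.10. In this list 32 genes had at most 3 counts in every S51 vehicle library, against 24 in S51A vehicle. Of 25 barrier lipid and protease genes, 15 passed, 5 were higher and none lower (median 0.74), between the protease genes Klk7 at 2.09 ± 0.26 and St14 at -0.52 ± 0.05. Of 15 desmosome genes, 13 passed and 3 were higher (median 0.27), led by the desmoglein gene Dsg1b at 2.19 ± 0.17, with Pkp2 lowest at -0.02.

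In RPF of the same comparison, where 15.8% of all genes were called, some list genes were also lower. Of the 16 transcription factors tested, 8 were higher and 3 lower (median 0.57): Pou3f1 at -1.38 ± 0.22, Maf at -1.37 ± 0.22 and Cebpb at -0.78 ± 0.18. Of 17 envelope genes 5 were higher, led by Cnfn at 5.27 ± 0.63, and 2 lower (median 0.50). Those 2 were Tchh at -1.65 ± 0.50 and Sprr2a3, which has close relatives that can share its reads, at -0.64 ± 0.22. Of 14 barrier genes 8 were higher and none lower (median 0.61), between Spink5, a protease inhibitor gene, at 1.82 ± 0.17 and St14 at -0.56. Of 12 desmosome genes 5 were higher and none lower (median 0.46).

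Suprabasal keratins were represented in total RNA by 6 of 10 genes. Of these, 3 were called higher and none lower (median 0.96), where 5.47% of all genes were higher. They ran from Krt10 at 0.26 ± 0.10 to Krt6b at 2.48 ± 0.25. Of 12 genes of the basal layer, all 12 passed and none was called higher, with a median of 0.28. The integrin gene Itga6 was highest at 0.76 ± 0.04, and Krt15, a basal keratin, was called lower at -1.07 ± 0.24 (edgeR adjusted p = 0.000508). In RPF, where 9.19% of all genes were higher, 3 of 6 suprabasal keratins were higher and none lower (median 0.95). Of the 12 basal genes, Itga6 (0.88 ± 0.08) and the laminin gene Lama3 (0.75 ± 0.08) were higher and Krt15 (-1.06 ± 0.32) was lower in RPF, with a median of 0.17.

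Of 14 other genes of the interleukin 1 and 36 family, 6 passed the filter in total RNA. Of these, 4 were called higher in S51A vehicle, where 5.47% of all genes were higher. Il18, the lowest of the 4 in S51 vehicle, may have passed the filter only through S51A libraries. The count therefore cannot be weighed against that share. Il1a, an alarmin of keratinocytes, went from 0.894 ± 0.165 to 14 ± 2.34 CPM of total RNA (log2 difference 3.96 ± 0.20), and Il18 from 0.240 ± 0.0454 to 1.31 ± 0.304 CPM (2.40 ± 0.29). Il1rl2, the receptor for interleukin 36, went from 2.13 ± 0.0492 to 10.3 ± 0.715 CPM (2.27 ± 0.11), and Il1rn, the interleukin 1 receptor antagonist, from 0.881 ± 0.0756 to 3.87 ± 0.533 CPM (2.12 ± 0.15). Il1r1 at 0.73 ± 0.09 was under the 2-fold limit, and Il1rap, the shared receptor subunit, was at -0.18 ± 0.09. In RPF, where 9.19% of all genes were higher, 5 passed the filter and 3 were higher, Il1a (4.58 ± 0.48), Il1rl2 (3.36 ± 0.49) and Il1rn (1.86 ± 0.48). In response to bortezomib Il1a differed between the lines opposite in sign to Il1f9, at -1.20 ± 0.32 (edgeR adjusted p = 0.00783). Of the other interleukin 36 genes, Il1f6 and Il1f8 had at most 13 and 5 counts in any vehicle library.

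**Figure D5:**
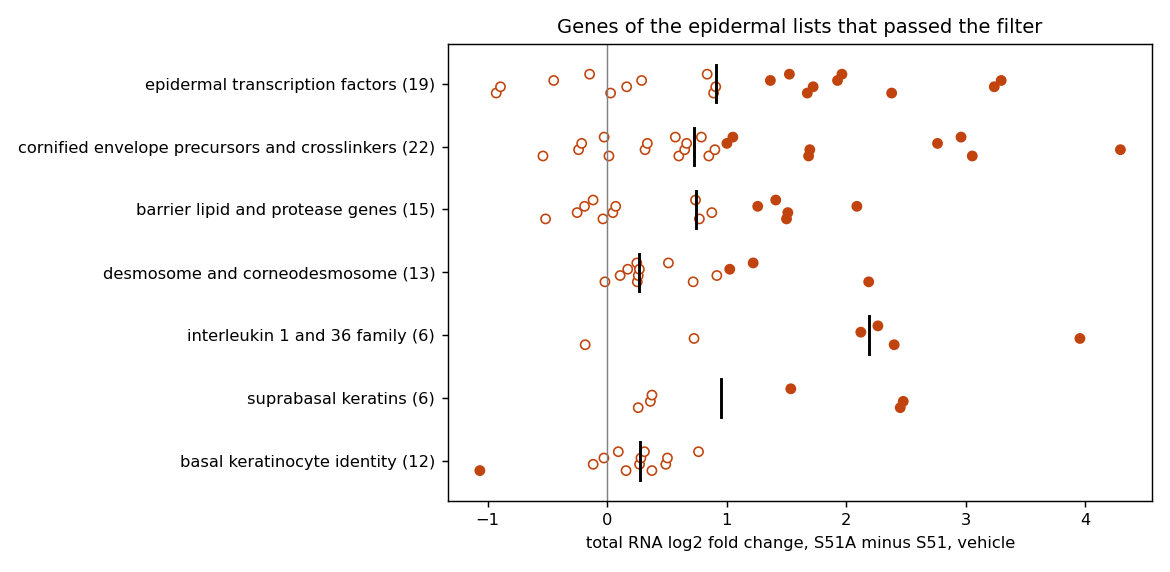
Total RNA log2 fold change between S51A and S51 in vehicle (x axis) for genes that passed the filter, by list (y axis, number of genes in brackets). Each point is a gene, filled where called, and black bars are medians, from 0.27 for desmosome genes to 2.19 for the interleukin 1 and 36 family; none of the filled points below 0 belongs to a list other than the basal one.

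After bortezomib, in total RNA of S51, where 4.99% of all genes were called, 2 of the 19 transcription factors rose and 2 fell, between Zfp750, a factor of terminal differentiation, at 2.81 ± 0.15 and Pou3f1 at -1.91. In S51A, where 4.18% of all genes were called, the counts were again 2 and 2, with Zfp750 at 1.74 ± 0.13 and Pou3f1 at -1.27, and the response of Zfp750 differed between the lines by -1.06 ± 0.21 (edgeR adjusted p = 0.000705). None of the tested genes of the envelope, barrier, desmosome, keratin, interleukin or basal lists was called in total RNA in either line. In RPF of S51, where 18.6% of all genes were called, every list held a call. Zfp750 rose (3.22 ± 0.30), and Pou3f1 (-2.30 ± 0.28), Maf (-1.70 ± 0.25) and Tfap2a (-0.79 ± 0.16) fell, 4 of 16 transcription factors. Of 17 envelope genes, Sprr1b and Sprr2k fell, by 0.71 and 0.76 on the log2 scale. Of 14 barrier genes Abhd5 rose (0.93 ± 0.20), and the kallikrein genes Klk8 (-0.59 ± 0.13) and Klk10 (-0.96 ± 0.16) fell. The other lists held 1 call each, with Dsp (0.70), Krt16 (0.77) and Krt15 (0.91) higher after bortezomib and Il1r1 (-1.42) lower. In RPF of S51A, where 10.9% were called, 4 of 16 transcription factors were called, with Zfp750 (1.63 ± 0.21) higher and Pou3f1 (-1.59 ± 0.29), Maf (-0.73 ± 0.26) and Grhl2 (-0.60 ± 0.10) lower. Beside them Krt13 (1.01 ± 0.31) was higher and Dst (-0.75 ± 0.10), a basal gene, lower, and no gene of the envelope, barrier, desmosome or interleukin lists was called. List genes named for an RPF call that were not the highest or lowest of their list were chosen after their values were seen.

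Some markers of other cell types moved with the line, and their part in the results was not tested. The summed total RNA level of 9 fibroblast markers was 30.5 to 36.1 CPM in S51 vehicle and 9.68 to 13 CPM in S51A vehicle. Vim, which tumor cells also express, was called lower in S51A (log2 difference -2.49 ± 0.10). The 7 immune markers summed to 3.47 to 4.59 CPM in S51 vehicle and 7.01 to 8.17 CPM in S51A vehicle, with Csf1r at 2.43 ± 0.30 and Cd3e and Lyz2 at 0 in all groups. The 5 endothelial markers summed to 3.43 to 4.88 and 1.23 to 1.93 CPM, with Emcn at 0 in all groups and Kdr at -1.45 ± 0.18. The 5 melanocyte markers summed to 2.31 to 2.92 and 2.233 to 2.998 CPM. The keratinocyte markers summed to 13670 to 14260 CPM in S51 vehicle and 17490 to 17740 CPM in S51A vehicle.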

How the data were processed

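Ribosome profiling (15 libraries) and total RNA sequencing (16 libraries) of S51 and S51A mouse SCC cells, with vehicle or bortezomib, were analysed from raw counts per gene. The authors trimmed reads with FastX, aligned them to mm10 with Bowtie2 and counted them in regions defined with plastid before the tables were deposited. Per the file headers, ribosomal reads had been removed, duplicates marked, repeats masked and reads kept where they mapped to 1 place. RPF counts cover coding sequence without the first 15 and last 5 codons, and total RNA runs were merged by the authors. The counted feature and strand setting for total RNA are not given in the sources used here. The submitters' processing notes also name DESeq2 and featureCounts. Marked duplicates can limit counts of short footprints, which have few distinct positions.

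Gene identifiers were matched to symbols (20687 of 20704 and 24569 of 24593). Genes were kept by filterByExpr (minimum count 10, minimum total 15), scaled by TMM and tested across all genes with edgeR 4.0.16 (quasi-likelihood test, R 4.3.3, limma 3.58.1) in 1 model of the 4 groups per kind of library, and for TE in 1 model over both kinds with an interaction term. Calls needed a Benjamini-Hochberg adjusted p below 0.05 and more than 1.5-fold (RPF, TE) or 2-fold (total RNA). Errors are SD for levels and SE for log2 fold changes. Values at 3 counts or fewer in every library of a group were treated as a floor. The floor covers counting error only. A gene can pass the filter through a single group in which it is high. The genes and lists were chosen with earlier results of these data known. The 10 genes are named in every comparison, the highest and lowest gene of each list and the called interleukin genes beside them, and for each gene the 3 genes with the highest Pearson's r. Some genes that this rule names are not reported here. Libraries of a group differed by more than sampling noise. In RPF, replicate 2 of S51 vehicle stood far from its group, with a chi-square per gene of 12.42 against replicate 1 and 17.33 against replicate 3. Replicates 1 and 3 gave 2.014, and pairs within the other RPF groups 1.637 to 4.771. The scripts were tested on simulated data. Alternatives were DESeq2 1.42.0, size factors by relative log expression (RLE), library sizes alone, no filter, only the groups compared, the replicate number as a block and leaving out each library.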

Additional observations from a re-analysis of the deposited data

Results flagged for a closer look

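Of 69 groups of 4 libraries examined, 6 held a library far from the others by Dixon's test, where chance gives about 1 in 20. In total RNA these were Klf4 in replicate 1 of S51 bortezomib (69.2 CPM, the highest), Grhl3 in replicate 4 of S51A vehicle (4.95 CPM, the lowest) and Endou in replicate 2 of S51A bortezomib (6.74 CPM, the highest). In RPF they were Grhl3 in replicate 4 of S51 bortezomib (0 CPM), Grhl3 in replicate 4 of S51A bortezomib (13.5 CPM, the lowest) and Tgm1 in replicate 3 of S51A vehicle (10.8 CPM, the highest).

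The response to bortezomib differed between the lines, by the interaction term of edgeR, for Ovol1 in RPF (-2.72 on the log2 scale, S51A minus S51), Ovol1 in total RNA (-1.43) and Il1f9 in total RNA (1.17). In total RNA, Zfp750 and Il1a were the other list genes for which this test was passed.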

How the results depend on the processing

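Of the 10 genes, the number called stayed within 1.5 times its value under each alternative except as follows. DESeq2 called 0 in the RPF response difference, where Ovol1 had no adjusted p, against 1. Library sizes alone gave 4 in total RNA for bortezomib in S51 against 2, with Trp63 and Klf4 joining. For TE between the lines in bortezomib, against 0, library sizes alone called 1 (Ovol1), DESeq2 and the library number as a block each called 2 (Ovol1 and Asprv1), and leaving out each library gave 0 to 1. The cause was not tested.

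Leaving out single libraries turned the sign of these log2 changes, none of them called. They ranged from -0.0074 to 0.19 for Trp63 (RPF, lines in vehicle), and in RPF of S51 after bortezomib from -0.053 to 0.23 for Ovol1, -1.61 to 0.071 for Tgm1 and -0.11 to 0.36 for Sprr1a. In RPF of S51A after bortezomib they ranged from -0.11 to 0.18 for Sprr1a and -0.21 to 0.25 for Asprv1, and in total RNA from -0.54 to 0.015 for Endou (bortezomib in S51) and -0.069 to 0.18 for Ovol1 (lines in bortezomib).

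Counts over all genes moved most in the RPF response difference, from 176 to 290 and 383 without replicates 2 and 3 of S51 vehicle, 109 without replicate 2 or 4 of S51A vehicle and 99 without replicate 3 of S51 bortezomib, in TE between the lines in vehicle, from 8 to 392 without that S51 vehicle library, 34 with DESeq2 and 0 with only the groups compared, and in the TE response difference, from 123 to 207 with DESeq2 and 65 with the block. TE calls for bortezomib in S51 went from 492 to 879 without replicate 3 of S51 vehicle, and total RNA calls for the response difference from 56 to 23 with DESeq2. Library sizes alone moved the total RNA median of all genes for bortezomib to -0.16 in S51 and -0.13 in S51A and the share of higher calls from 39.4% to 21.8% and from 39.1% to 26.5%. They moved that share in TE from 81% to 52.6% between the lines in bortezomib, from 22% to 61.5% for bortezomib in S51 and from 83.7% to 62.2% for the response difference.

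The labels do not say what a shared library number marks. Deviations of same-numbered libraries correlated at 0.002 to 0.191 in total RNA (8 of 24 pairs over 0.1, against 0 of 72 with different numbers), at -0.158 to 0.261 in RPF (3 of 21, against 7 of 63) and at -0.056 to 0.346 between RPF and total RNA of a group (8 of 15, against 2 of 45). In total RNA 15 of 16 and in RPF 11 of 15 libraries correlated best with their own number, a hint from the data that numbers may be paired. Since not every pair was over 0.1, the block was kept as an alternative. That limit does not exclude pairing, and the TE calls between the lines in bortezomib depend on this choice. With the replicate block, 8, 7, 5, 7 and 1 of the 10 genes were called in RPF in the 5 comparisons, 8, 7, 2, 4 and 2 in total RNA, and 2 in TE between the lines in bortezomib (Ovol1 and Asprv1). Asprv1 was gained in RPF of S51 after bortezomib (1.59 on the log2 scale). RPF depth limits what can be said of Endou, Il1f9, Tgm1 and Ovol1, which held few or no counts in some groups.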
